A study of Rattus norvegicus with 19 samples.

Results

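Genes of the circadian clock, 10 in number, were examined in rat mammary tissue: Arntl (current symbol Bmal1), Clock, Per1, Per2, Per3, Cry1, Cry2, Nr1d1, Nr1d2 and Dbp. They were taken by name, through the RefSeq accession of each array probe, and not by their values. All 10 of these genes had a probe, among 15168 gene symbols on the array, and together they had 16 probes. The samples were 6 normal glands and 13 carcinomas of the mammary gland. All came from female rats, F1 hybrid of Sprague-Dawley and Copenhagen, and each had 1 single-colour array. The source label of the carcinomas states induction by radiation. The protocol covers both rats left untreated and rats given 4 Gy of whole-body gamma rays from caesium when 7 weeks old. Whether any normal gland came from an irradiated rat is not given, so radiation and tumour growth cannot be told apart here. The rats were kept under 12 hours of light and 12 hours of dark. The labels give no hour of tissue collection and no age at collection, and they do not say that each sample came from a separate animal, so the p-values measure only the spread between these samples.

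The circadian clock is a loop of transcription that runs in most cells with a period of about a day. The proteins of Arntl and Clock form a dimer that binds E-boxes, short DNA elements, and switches on the period genes (Per), the cryptochrome genes (Cry), Nr1d1, Nr1d2 and Dbp. Period and cryptochrome proteins then return to the nucleus and inhibit the dimer, which closes the loop. Nr1d1 and Nr1d2 encode REV-ERB proteins, which repress Arntl through ROR response elements, and Dbp encodes a transcription factor that acts on D-boxes. In tissues sampled around the clock Arntl is known to peak when Dbp and Nr1d1 are low, so in samples collected at different hours their levels tend to run against each other.

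Promoter windows from 250 bases before to 50 bases after the annotated start were taken from RefSeq (GRCr8), and 9 of the 10 genes had a window, Cry1 being the other. They were searched on both strands for CACGTG (E-box), CACGTT (a weaker E-box form), TTATGTAA and TTACGTAA (D-boxes) and TAGGTCA (core of the ROR response element). The motifs do not overlap each other in these windows. Among all 33469 windows, 6.42% held CACGTG, 4.83% held CACGTT, 0.893% held TTATGTAA, 0.12% held TTACGTAA and 2.63% held TAGGTCA. Of the 9 genes with a window, which had 11 windows in all, 4 had at least 1 of these words. The share of all windows with at least 1 word was not counted, so this count is a description. The 4 windows below are shown because they cover the binding elements of the loop and because the levels of these genes are followed through the rest of the results. Capitals mark the motif. Tef, which is not among the 10, encodes a transcription factor of the same PAR bZIP family as Dbp.
Bmal1: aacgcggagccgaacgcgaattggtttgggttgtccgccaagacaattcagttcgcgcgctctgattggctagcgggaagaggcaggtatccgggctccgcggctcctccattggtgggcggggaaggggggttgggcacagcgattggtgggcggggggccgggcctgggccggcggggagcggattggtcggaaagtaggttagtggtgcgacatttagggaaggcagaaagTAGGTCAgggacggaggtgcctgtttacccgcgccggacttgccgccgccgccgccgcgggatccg
Per2: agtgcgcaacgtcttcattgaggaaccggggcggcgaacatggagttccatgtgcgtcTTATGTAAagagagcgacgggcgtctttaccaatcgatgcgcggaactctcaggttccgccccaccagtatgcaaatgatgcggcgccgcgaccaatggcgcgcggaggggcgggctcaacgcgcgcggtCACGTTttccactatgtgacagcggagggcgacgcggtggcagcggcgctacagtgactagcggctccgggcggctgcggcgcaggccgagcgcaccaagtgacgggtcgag
Nr1d1: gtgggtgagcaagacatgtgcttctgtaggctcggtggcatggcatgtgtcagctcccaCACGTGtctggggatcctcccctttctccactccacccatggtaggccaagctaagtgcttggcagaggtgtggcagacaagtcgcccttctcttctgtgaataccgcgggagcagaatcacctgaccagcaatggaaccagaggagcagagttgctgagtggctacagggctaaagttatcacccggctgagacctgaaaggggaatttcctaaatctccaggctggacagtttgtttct
Tef: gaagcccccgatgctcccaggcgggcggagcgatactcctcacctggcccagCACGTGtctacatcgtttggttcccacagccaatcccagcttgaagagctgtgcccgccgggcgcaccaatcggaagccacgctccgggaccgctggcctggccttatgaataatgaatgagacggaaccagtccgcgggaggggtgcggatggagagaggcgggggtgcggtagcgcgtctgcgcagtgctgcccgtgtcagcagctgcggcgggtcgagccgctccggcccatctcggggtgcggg
These letters lie as follows. The Bmal1 window is chr1:176766078-176766377 on the plus strand, with TAGGTCA starting 16 bases before the start. The Per2 window is chr9:99496944-99497243 on the minus strand, with TTATGTAA starting 192 bases and CACGTT 62 bases before the start. The Nr1d1 window shown is chr10:84229405-84229704 on the minus strand, with CACGTG 191 bases before the start. A second annotated start of Nr1d1 had CACGTT on the other strand, 174 bases before it. The Tef window is chr7:115206577-115206876 on the plus strand, with CACGTG 198 bases before the start. Cry2 held CACGTT on the other strand, 212 bases before its start. None of the searched words lay in the windows of Dbp, Clock, Per1, Per3 or Nr1d2. A match is a description of the letters and not of a bound site.

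The array values behind the results are log2 intensities minus the array's own 75th percentile, so 0 is the 75th percentile and a difference of 1 is a 2-fold change. Levels of different genes are not compared, since probes differ in brightness. Carcinoma arrays were brighter, with a 75th percentile of 485 to 1428 intensity units, against 295.5 to 673 for the glands. Both groups were present on each of 3 slides. The sample codes in the descriptions carry a number for 15 samples and a letter for 4, which are normal gland 6 and carcinomas 11, 12 and 13. All 4 letter-coded samples were on slide 3, where gland 6 was the only gland. Markers of several other cell types moved with the groups. All 7 of the adipocyte markers tested were lower in carcinomas, and their summed level, as a multiple of the array's 75th percentile, was 67.2 to 183 in glands and 0.898 to 4.45 in carcinomas. All 5 endothelial markers, 3 of 5 macrophage markers and 4 of 5 lymphocyte markers were also lower, and 2 of 7 luminal epithelial markers were higher. Of 5 fibroblast markers 1 was lower, and 0 of 5 basal epithelial and 0 of 5 skeletal muscle markers were called. In whole tissue, fewer cells of a type and less RNA per cell cannot be told apart.

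Carcinomas and normal glands were compared with limma over 12789 genes, with Benjamini-Hochberg adjustment over all of them and a threshold of 0.05. Of all genes tested, 23.0% were called, 9.73% higher and 13.2% lower, which is 1244 genes against 1692. With normexp, another background correction, the split was 926 against 5249 and the median change of all genes was -0.37. Of the 10 clock genes, 1 was called lower (Cry2), 0 were called higher and 9 did not pass. None of the 10 was higher with an unadjusted p under 0.05, while Cry2 and Per1 were lower at that level. Of all genes, at least the 23.0% called were also under that level, so these counts are a description. Their median log2 change was -0.08, against 0.01 over all genes, and their median absolute change was 0.49, against 0.44. No clock gene had groups that did not overlap, against 2.47% of all genes. All 10 were well above background on all 6 glands, and on all 13 carcinomas except for Per1 and Nr1d2, which were so on 12.

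**Figure D1:**
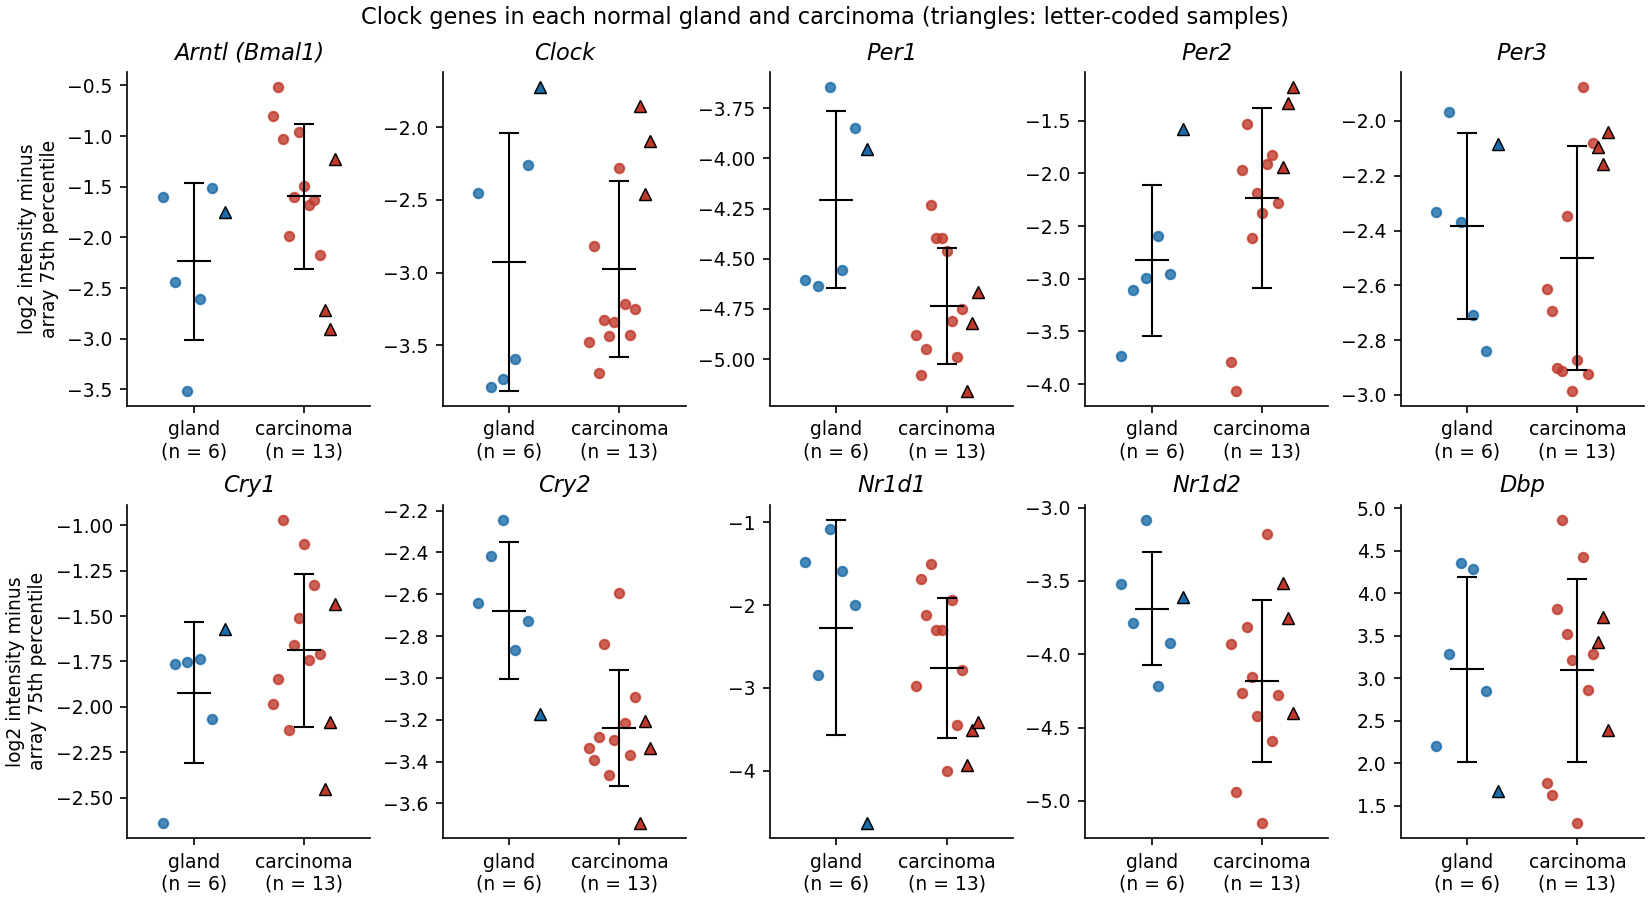
Level of each clock gene on every array (vertical axis: log2 intensity minus the array's 75th percentile; circles: number-coded samples; triangles: letter-coded samples; black bars: mean ± SD). The 2 groups overlap for all 10 genes, Cry2 has the clearest displacement, and the Clock level is high in letter-coded samples of both groups.

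**Figure D2:**
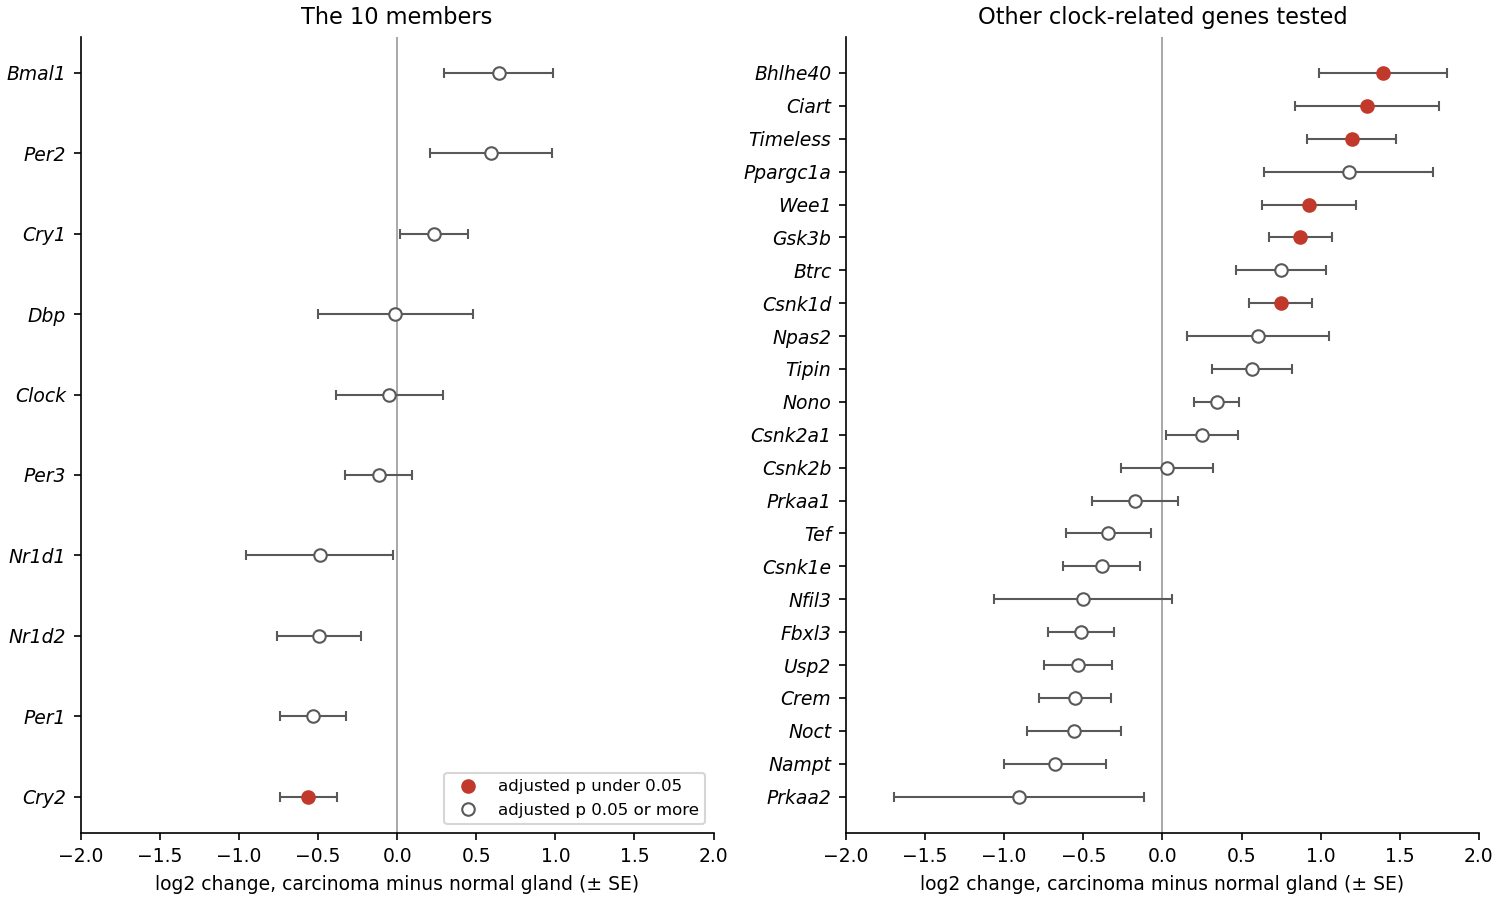
Log2 change from normal gland to carcinoma with its standard error, for the 10 clock genes on the left and 23 other clock-related genes on the right. Filled points passed an adjusted p of 0.05: Cry2 on the left, lower in carcinomas, and 6 genes on the right, all higher. Among these, Ciart was not well above background on any gland.

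Among the activators, Arntl (Bmal1) ranged in normal glands from -3.51 through a median of -2.10 to -1.51. In carcinomas its lowest, median and highest levels were -2.90, -1.60 and -0.52. Carcinomas 1, 2 and 6 were among those above every gland, and carcinomas 11 and 12 were at the low end with gland 3. The log2 change was 0.64 ± 0.34 (SE), which did not pass (limma adjusted p = 0.189). Among number-coded samples alone, 5 glands and 10 carcinomas, it was 0.95 ± 0.33 and passed (limma adjusted p = 0.0448). A second Bmal1 probe followed the first across carcinomas (r = 0.93) and gave 0.34 ± 0.36.

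Clock, the partner of Arntl, differed in mean between the groups by less than its standard error. It ran from -3.78 to -1.73 in glands (median -3.02) and from -3.69 to -1.86 in carcinomas (median -3.25), with a log2 change of -0.05 ± 0.34 (limma adjusted p = 0.939). Its highest gland was the letter-coded gland 6, and among carcinomas the letter-coded 11, 13 and 12 had levels of -1.86, -2.09 and -2.46, with only the number-coded carcinoma 7 (-2.28) in the same range. A second Clock probe did not follow the first (r = 0.13 across carcinomas) and gave 0.34 ± 0.25, so the probes disagree on how Clock varies between samples.

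The period genes encode inhibitors of the dimer. Per1 was between -4.63 and -3.65 in glands (median -4.25) and between -5.16 and -4.23 in carcinomas (median -4.81). Glands 3, 5 and 6 were above every carcinoma. The log2 change of -0.53 ± 0.21 did not pass (limma adjusted p = 0.0736). Under normexp, where the median over all genes was also lower, as given above, it was -0.86 ± 0.17 and passed (limma adjusted p = 0.000543).

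Per2 was between -3.74 and -1.58 in glands (median -2.97) and between -4.06 and -1.19 in carcinomas (median -1.97). The 2 lowest carcinomas were 1 and 2, at -3.79 and -4.06, and the other 11 were at -2.61 or higher. Its log2 change was 0.59 ± 0.38 (limma adjusted p = 0.282). Per3 was between -2.84 and -1.97 in glands and between -2.98 and -1.88 in carcinomas, with a change of -0.12 ± 0.21 (limma adjusted p = 0.738). The 3 Per3 probes disagreed: the others gave 0.29 ± 0.24 and 1.19 ± 0.41, and the last, well above background on only 10 arrays, passed when all probes were tested (limma adjusted p = 0.0437). Across carcinomas these probes correlated with the first at 0.25 and -0.05, so no direction for Per3 can be drawn from them together.

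Of the cryptochromes, Cry2 was the only clock gene past the threshold. It was between -3.17 and -2.24 in glands (median -2.69) and between -3.69 and -2.60 in carcinomas (median -3.29). All glands except gland 6 were higher than 11 of the 13 carcinomas, with gland 6 low and carcinomas 7 and 4 high. The log2 change of -0.56 ± 0.18, a level 1.47-fold lower, had a limma adjusted p of 0.0304. The call was lost without gland 1 (adjusted p = 0.0511), gland 2 (0.084) or gland 3 (0.0993), which share a slide, and it was kept without any other sample.

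Within carcinomas the Cry2 level ran against the array's brightness (log2 of the 75th percentile), with r = -0.85 over 13 arrays. Carcinoma 7, with the dimmest carcinoma array, had the highest Cry2 level. With brightness as a covariate the log2 change of Cry2 was 0.05 ± 0.27 (limma adjusted p = 0.945), and that model called 1.45% of all genes. Within slides 1, 2 and 3 the change was -0.93, -0.23 and -0.14, none past the threshold in these smaller sets. The adipocyte, endothelial and immune markers fell in the same samples, and their part in the Cry2 difference was not tested. Cry1, the other cryptochrome, was between -2.64 and -1.57 in glands and between -2.45 and -0.97 in carcinomas, with a change of 0.23 ± 0.21 (limma adjusted p = 0.469).

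The REV-ERB genes did not pass. Nr1d1 ran from -4.63 to -1.08 in glands (median -1.79) and from -4.00 to -1.51 in carcinomas (median -2.78), with a log2 change of -0.49 ± 0.46 (limma adjusted p = 0.485). The lowest gland was gland 6, and carcinomas 7, 11, 12, 9 and 13 were at -3.41 or lower. Nr1d2 was between -4.22 and -3.08 in glands (median -3.70) and between -5.15 and -3.18 in carcinomas (median -4.27), with a change of -0.49 ± 0.27 (limma adjusted p = 0.192). Under normexp, where the median change over all genes was -0.37, Nr1d2 changed by -0.71 ± 0.15 and passed (limma adjusted p = 0.001).

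Dbp, the output gene of the loop, had nearly equal means and a wide spread in each group. It ran from 1.67 to 4.35 in glands (median 3.06), a 6.39-fold range, and from 1.30 to 4.86 in carcinomas (median 3.28), an 11.9-fold range. Glands 3 and 4 and carcinomas 4 and 8 were high, and gland 6 and carcinomas 7, 2 and 1 were low. The log2 change was -0.01 ± 0.49 (limma adjusted p = 0.99). The other 2 Dbp probes followed the first closely (r = 0.99 each across carcinomas) and gave 0.09 ± 0.47 and 0.13 ± 0.46.

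Spread between samples of a group differed widely among the clock genes. In normal glands the SD of the log2 level was 1.30 for Nr1d1, 1.09 for Dbp, 0.89 for Clock, 0.77 for Bmal1 and 0.72 for Per2, against a median of 0.52 over all genes. These exceeded the SD of 96.3%, 92.5%, 85.0%, 77.5% and 72.8% of the 12703 genes measured on all arrays. Single glands decided several of these values. Without gland 6 the SD was 0.67 for Nr1d1 and 0.42 for Per2, above 72.8% and 41.4% of genes, and without gland 3 it was 0.51 for Bmal1, above 49.2%. Per3, Cry1, Cry2 and Nr1d2 had gland SDs between 0.33 and 0.39, below most genes, and without gland 1 that of Cry1 was 0.18. In carcinomas the SD was 1.07 for Dbp, 0.85 for both Nr1d1 and Per2, 0.71 for Bmal1 and 0.60 for Clock, against a median of 0.60. Cry2 and Per1 varied least there, with SDs of 0.28 and 0.29, smaller than all but 7.12% and 8.74% of genes.

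Absolute deviations from the group median were compared between groups with limma. None of the 10 genes was called and 0% of all genes were, while 1037 genes and 0 of the 10 had an unadjusted p under 0.05. On simulated data of the same size this test recovered 0% of 200 genes whose spread was made 4 times as large in carcinomas, so its counts carry no information on whether the spreads differ.

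Pairwise correlations asked whether the clock genes moved together between samples of a group. All 45 pairs were computed in each group, by Pearson's r and Spearman's rho with 2-sided permutation tests: 100000 resamples for 13 carcinomas, and all 720 orders, exact, for 6 glands. Levels on an array share its brightness and tissue makeup. In carcinomas 7 pairs had a Pearson p under 0.05, 5 had a Spearman p under 0.05, and 3 had both. For scale, 549 (Dbp) to 3232 (Clock) of 12788 genes had an unadjusted limma p under 0.05 with a clock gene's level there. In glands 2 pairs had a Pearson p under 0.05 and 0 had a Spearman p under 0.05. Of the 45 pairs, 25 had the same sign of r in both groups. For none of these counts was the share over all gene pairs taken.

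**Figure D3:**
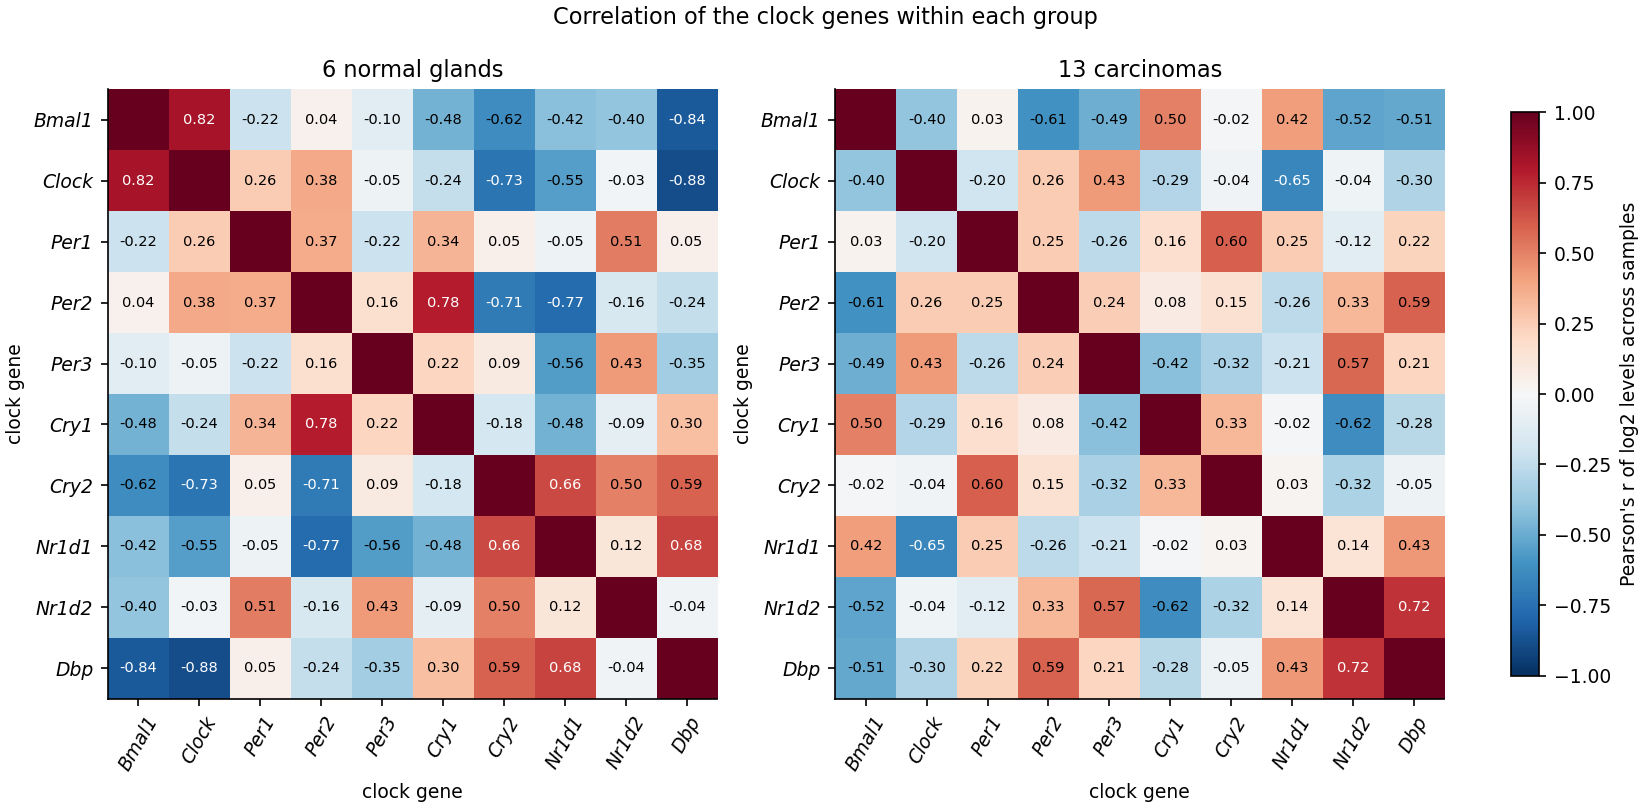
Pearson's r of the log2 levels for each pair of clock genes, across the 6 normal glands on the left and the 13 carcinomas on the right (colour from -1, blue, to 1, red). The Bmal1-Dbp cell is blue in both groups, at -0.84 and -0.51, while Bmal1-Clock is 0.82 in glands and -0.40 in carcinomas. Clock is shown by its first probe, which the second did not follow.

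The correlation of Arntl with Dbp was below 0 in both groups. In glands r was -0.84 (exact permutation p = 0.0389) and rho was -0.77 (exact p = 0.103), with gland 3 lowest in Bmal1 and highest in Dbp. In carcinomas r was -0.51 (permutation p = 0.0763) and rho was -0.57 (permutation p = 0.0471). Without the 2 carcinomas farthest from the median of Bmal1 it was -0.56, in the 10 number-coded carcinomas -0.55, and after centring on slide means -0.43. In glands array brightness correlated with Bmal1 at 0.81 and with Dbp at -0.62, and gland 3 had the dimmest array. The same values in carcinomas were -0.008 and 0.22. The part of brightness in the Bmal1 and Dbp relation was not tested. Of 6 known targets of the dimer (Per1, Per2, Per3, Nr1d1, Nr1d2 and Dbp), Bmal1 had a negative r with 5 in glands and with 4 in carcinomas. With Cry1 and Cry2, also targets, r was -0.48 and -0.62 in glands and 0.50 and -0.02 in carcinomas. A negative r with Bmal1 is common: in carcinomas Btrc, at rank 7202 of 12788 genes from the highest, had -0.007. The share of all genes in glands was not counted, so these signs are a description. Nr1d1, whose protein represses Arntl, had r = -0.42 with it in glands (exact p = 0.447) and 0.42 in carcinomas (permutation p = 0.155). The difference between the groups was not tested.

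Nr1d2 and Dbp were the most closely linked of the pairs in carcinomas. Their r was 0.72 (permutation p = 0.00489) and their rho 0.75 (permutation p = 0.00417). In number-coded carcinomas r was 0.74 and centred on slide means 0.75, both with a p under 0.05. Without the 2 samples farthest from the median of Nr1d2 it was 0.54 (permutation p = 0.0876) and under normexp 0.40 (permutation p = 0.175), neither of which passed, and in the 6 glands it was -0.04 (exact p = 0.94). Carcinoma 7 had the lowest level of both genes, and carcinoma 8 had the highest Nr1d2 and the second highest Dbp. Nr1d2 was not well above background on carcinoma 7, and without that sample r was 0.63 (permutation p = 0.0286).

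Bmal1 and Per2 ran against each other in carcinomas, with r = -0.61 (permutation p = 0.0269) and rho = -0.56 (permutation p = 0.0489). Carcinomas 1 and 2 had the highest Bmal1 and the lowest Per2. Centred on slide means r was -0.28, without the 2 samples farthest from the median of Bmal1 it was -0.59 (permutation p = 0.0536), and leaving out carcinoma 1, 2 or 12 in turn raised its p above 0.05. Cry1 and Nr1d2 had r = -0.62 (permutation p = 0.025) and rho = -0.66 (permutation p = 0.0175). That pair was -0.52 centred on slide means, -0.48 in number-coded carcinomas and -0.18 under normexp.

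The other 4 pairs under 0.05 by Pearson's r in carcinomas did not pass by Spearman's rho. Clock and Nr1d1 had r = -0.65 (permutation p = 0.0182), but -0.39 in number-coded carcinomas. Per1 and Cry2 had 0.60 (permutation p = 0.0297), Per2 and Dbp 0.59 (permutation p = 0.0322) and Per3 and Nr1d2 0.57 (permutation p = 0.0408). Within slides, by centring, these were 0.44, 0.58 and 0.20. Without the 2 samples farthest from the median of the first gene, Per2 and Dbp had 0.22 (permutation p = 0.531), Per3 and Nr1d2 0.52 (permutation p = 0.0972) and Clock and Nr1d1 -0.50 (permutation p = 0.119), so none of these 3 passed. In glands Clock and Dbp had r = -0.88 (exact p = 0.0361) but a rho of -0.77 (exact p = 0.103), and Bmal1 and Clock had r = 0.82 (exact p = 0.0583). All pairs with Clock use its first probe, which the second did not follow.

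Each of the 10 levels was also used as the predictor of every other gene across carcinomas with limma, adjusted over 12788 genes. No pair of clock genes was called in these fits, and the lowest adjusted p of any pair was 0.0804, for Clock and Nr1d1. The Clock level was associated with 914 genes, 7.15% of those tested, and with 82 when only number-coded carcinomas were used. These counts rest on the first Clock probe, which the second did not follow (r = 0.13 across carcinomas), and were not repeated with the second. The Per2 level was associated with 1 gene, 0.00782% of those tested, which was Col18a1, a collagen gene named because it was the only call. The levels of Bmal1, Per1, Per3, Cry1, Cry2, Nr1d1, Nr1d2 and Dbp were associated with 0 genes (0%) by limma. At an unadjusted p under 0.05 these had 946, 818, 2404, 613, 1084, 1764, 871 and 549 genes, and Clock and Per2 had 3232 and 1609.

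The genes most like Dbp and Bmal1 were ranked by r across the 13 carcinomas, over 12788 genes. The gene closest to Dbp was Tef, its relative in the PAR bZIP family, with r = 0.91 and rho = 0.86. The next were Tnfrsf11b, which encodes the decoy receptor osteoprotegerin (r = 0.88), Plcb4 (0.85) and Hepacam2 (0.83). The lowest were Kansl2 (-0.85), Polr1g (-0.81) and Calr (-0.80). Those closest to Bmal1 were Maff (0.92), Surf6, Rhbdf2, Zfp622 and Stk32c (0.82 to 0.83), and the lowest were Cep15 (-0.90), Atl1 (-0.83) and Naa38 (-0.82). None of the 16 genes that the ranking took passed the adjustment over all genes, the lowest adjusted p being 0.395, and as the extremes of a ranking they are a description.

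The normal glands were not used in that ranking, so the same 16 relations were then tested there, a check added after the carcinoma values had been seen. Tef and Tnfrsf11b followed Dbp in the glands as well. The Tef levels of glands 1 to 6 were 0.01, 0.40, 1.05, 0.87, 0.11 and -0.61, against Dbp levels of 2.20, 3.28, 4.35, 4.28, 2.85 and 1.67. The Tnfrsf11b levels were -3.49, -1.92, -0.74, -1.60, -2.46 and -4.52. All 3 genes put the 6 glands in the same order, from gland 6 through 1, 5, 2 and 4 to gland 3.

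For Tef in glands r was 0.98 and rho 1.00 (exact permutation p = 0.00139, the smallest that 720 orders can give, and 0.0222 adjusted over the 16 relations). For Tnfrsf11b r was 0.96 and rho 1.00 (exact permutation p = 0.00278, adjusted 0.0222). The other 14 did not pass, with adjusted p of 0.356 or more. Plcb4, high with Dbp in carcinomas, had r of -0.58 in glands, and Maff had -0.39 with Bmal1. A high r with Dbp in glands was not particular to Tef and Tnfrsf11b. Bhlhe40, a clock-related gene outside the 16 relations, had r = 0.97 with Dbp in glands but 0.34 in carcinomas. The share of all genes with so high an r in glands was not counted. Array brightness correlated with Dbp, Tef and Tnfrsf11b at -0.62, -0.55 and -0.65 in glands and at 0.22, 0.31 and 0.32 in carcinomas. Its part in these relations was not tested.

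The Dbp and Tef relation in carcinomas was 0.95 among number-coded samples, 0.91 centred on slide means, 0.86 without the 2 samples farthest from the median of Dbp and 0.91 under normexp. For Tnfrsf11b the same values were 0.87, 0.88, 0.76 and 0.76. Tef and Bmal1 had r = -0.65 in carcinomas and -0.83 in glands. Nfil3, which encodes a repressor that competes for D-boxes, had r = 0.72 with Bmal1 and -0.68 with Dbp in carcinomas, and 0.18 and -0.61 in glands. Npas2, which can stand in for Clock, had r = 0.90 with Bmal1 in glands and 0.36 in carcinomas. These relations with Bmal1, and that of Nfil3 with Dbp, did not pass in carcinomas (limma adjusted p of 0.637 or more). In glands Bmal1 also rose with array brightness (r = 0.81), whose part in these relations was not tested. Values for other repressor genes of the loop follow, and their difference between the groups was not tested. With Bmal1, Ciart had 0.04 in carcinomas and -0.87 in glands, where it was not well above background, and Bhlhe40 had 0.29 and -0.69. With Dbp, Ciart had 0.03 and 0.81, and Bhlhe40 had 0.34 and 0.97.

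**Figure D4:**
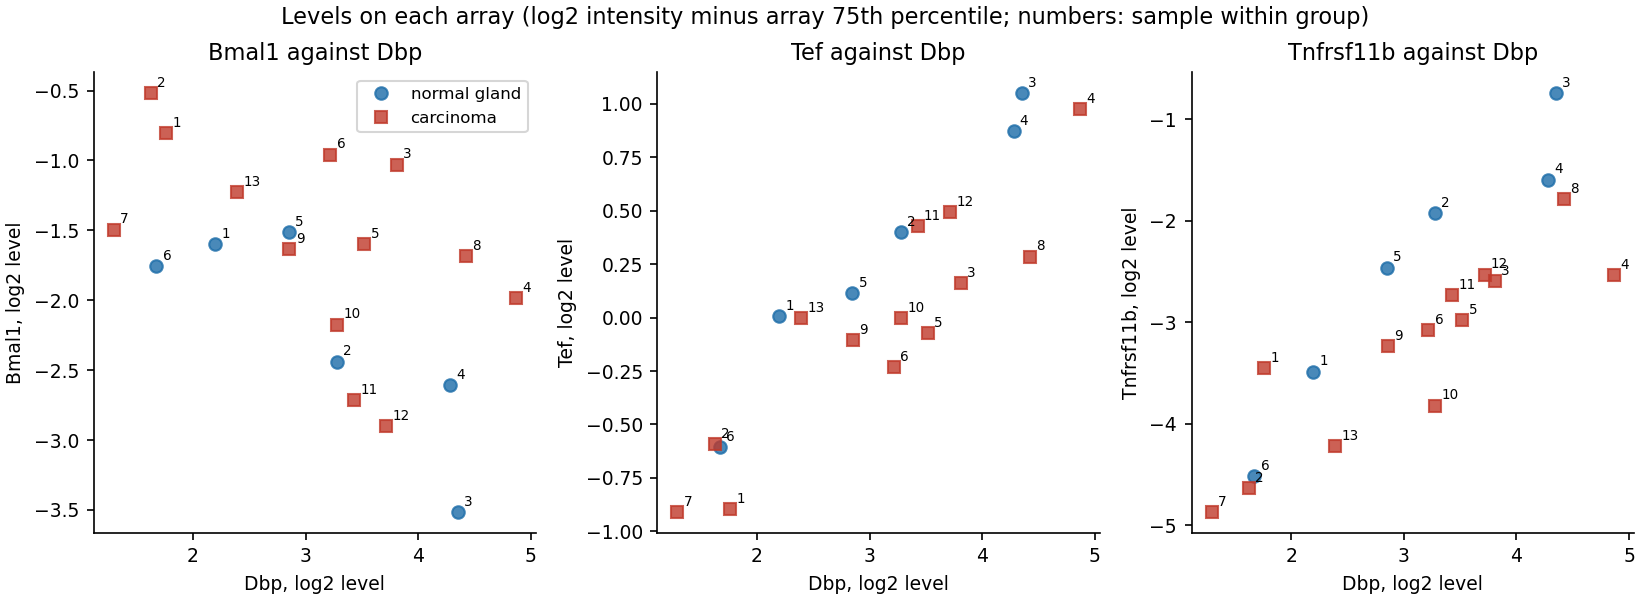
Levels of Bmal1, Tef and Tnfrsf11b against Dbp on each array (both axes: log2 intensity minus the array's 75th percentile; circles: 6 normal glands; squares: 13 carcinomas; numbers: sample within the group). The r of Bmal1 with Dbp is below 0 in both groups (-0.84 and -0.51), and Tef and Tnfrsf11b rise with Dbp (r = 0.98 and 0.91 for Tef, 0.96 and 0.88 for Tnfrsf11b).

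A wider list of 31 clock-related genes covered further transcription factors of the loop, the kinases and ubiquitin ligases that set the life of period and cryptochrome proteins, and rhythmic output genes. Of these, 23 could be tested, and the others, among them Rora, Rorb, Hlf, Bhlhe41, Fbxl21, Fbxw11 and Sirt1, were not analysed here. In carcinomas 6 of the 23 were called higher, against 9.73% of all genes, 0 were called lower by limma, against 13.2%, and 17 did not pass. At an unadjusted p under 0.05, 10 were higher and 4 were lower. Of all genes, at least the 9.73% and 13.2% called were also under that level. Ciart, called, and Ppargc1a, not called, passed the filter on dim probes only through carcinomas. They lend no weight to the counts of higher genes. The median log2 change of the 23 was 0.25.

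Among the transcription factors, Bhlhe40, which encodes the repressor DEC1, rose by 1.40 ± 0.40 (limma adjusted p = 0.0176). Its lowest, median and highest levels were -2.98, -1.94 and -1.25 in glands and -2.58, -0.47 and 0.49 in carcinomas. Carcinomas 7, 11 and 12 were within the range of the glands and the other 10 were above it. Ciart, another repressor of the dimer, was not well above background on any gland and was so on 11 carcinomas. In the main values it was at least 1.67-fold higher in carcinomas (limma adjusted p = 0.0457), measured means being -6.09 and -4.80. Under normexp its change was -0.52, so its direction and this bound rest on the background correction. It passed the filter on dim probes only through carcinomas, so its call lends no weight to the count of higher genes. Npas2 (0.60 ± 0.45), Tef (-0.34 ± 0.27) and Nfil3 (-0.50 ± 0.56) did not pass.

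Timeless and Wee1, which also act in the cell cycle, were higher in carcinomas. Timeless, which acts in DNA replication and has been linked to the clock, had a log2 change of 1.20 ± 0.28 (limma adjusted p = 0.00539). Wee1, a cell-cycle kinase and known clock output, had 0.92 ± 0.30 (limma adjusted p = 0.0294). Markers of cycling cells moved in the same samples, with 2 of 5 called higher and a summed level of 1.52 to 5.81 in glands and 2.03 to 17.7 in carcinomas. Their part was not tested.

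The kinase genes Csnk1d, whose product phosphorylates period proteins, and Gsk3b, whose product acts on several clock proteins, rose by 0.75 ± 0.20 (limma adjusted p = 0.0119) and 0.87 ± 0.20 (limma adjusted p = 0.0045). Gsk3b was between -0.74 and 0.91 in glands and between 0.60 and 1.16 in carcinomas, where its SD was 0.16. Of the 17 that did not pass, Prkaa2 had the lowest change, -0.91. Ppargc1a was not well above background on any gland and was so on 9 carcinomas. It was at least 1.37-fold higher in carcinomas, measured means being -6.58 and -5.40, and did not pass (limma adjusted p = 0.117). With array brightness as a covariate 0 of the 6 passed, in a model that called 11 of all 12789 genes higher. Wee1 did not pass without gland 1, 2 or 6. Ciart did not pass without any 1 of 14 samples.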

How the data were processed

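Per the submitters' processing notes, Agilent Feature Extraction 10.7.3.1 produced the scanner files. Per the file headers, the authors' scanner files give a background-subtracted intensity for each spot, median pixel intensities, and flags (0 or 1, no fixed unit) for uneven, outlying, saturated and well-above-background spots. The authors also deposited a table of log2 values. It matched the scanner values up to a shift per array of 0.43 to 0.54, a scaling not stated in the labels.

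Without control spots each array held 58717 spots of 30367 probes, of which 403 to 1069 spots were flagged and set to missing. Values are the log2 intensity minus the 75th percentile of its array, averaged over a probe's spots. Symbols came from the RefSeq accession without version (18005 probes with a symbol, 12362 without). A probe counted as well above background when at least 0.5 of its spots did, and was kept when this held on 6 or more arrays. The probe with the highest mean stood for a gene, which left 12789 genes, 86 of them with missing values. The number of arrays limits the precision. A fold given as "at least" sets the bright group's mean against the lowest signal well above background on each array of the other group, or the probe's own signal where higher.

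Tests used limma 3.58.1 in R 4.3.3 with variances following intensity, 2-sided, with group as the only term, adjusted over all genes, threshold 0.05, and were tested on simulated data. Permutation tests used scipy 1.17.1 and numpy 2.4.6 in Python 3.11.15. The scanner files hold no mean pixel signal, so the normexp alternative (offset 50) used the median signal. The genes named were the 10 clock genes, the wider list, and for Arntl and Dbp the 5 highest and 3 lowest correlations. Some genes under this rule are not reported here. The genes and lists were chosen with earlier results of these data known. Replicate numbers shared by the groups did not pair samples: the correlation of deviations for same-numbered samples was between -0.11 and 0.24. Alternatives covered background correction, normalization, probe filter and choice, slide, scan day, sample code and brightness.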

Additional observations from a re-analysis of the deposited data

Results flagged for a closer look

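Outlying normal glands were looked for in the 10 clock genes and the 6 other clock-related genes called, by the gap between an extreme gland and its neighbour as a share of the range over the 6 glands. The Wee1 level of normal gland 6 was -1.576, against -0.88 in the next lowest gland, a gap of 0.627 of the range, just past Dixon's 95% critical value for 6 samples. Gland 6 was the letter-coded gland. Chance marks about 1 in 20 such groups, and 16 genes were examined.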

How the results depend on the processing

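The count of clock genes called lower (1, Cry2) became 3 under normexp and 0 with quantile normalization, with brightness as a covariate, and within each of slides 1, 2 and 3, the last with 1 gland, assumed to vary like the carcinomas. Leaving out samples in turn gave 0 to 1. The count called higher (0) became 1, Bmal1, among number-coded samples only. Shared sample numbers were also used as a replicate block, although they do not pair the samples: 0 clock genes were then called lower, Cry2 changing by -0.59, and Nr1d1 (0.13) and Dbp (0.029) turned sign without passing. Of the other clock-related genes called higher (6), 0 were with brightness as a covariate, 1 within slide 1 and 0 within slides 2 and 3. In those fits the genes called over the whole array fell as well, to 11 higher and 174 lower with brightness, and to 153 and 534, 45 and 267, and 0 and 31 within the slides. The count called lower (0) became 7 under normexp, 1 with slide as a block, 3 with the code series as a block, 1 with the replicate block and 2 among number-coded samples. Leaving out samples in turn gave 4 to 7 higher and 0 to 2 lower. Of all 12789 genes, normexp called 926 higher and 5249 lower, and quantile normalization 1570 and 1447. With slide, code series and replicate as a block these were 1402 and 1798, 1596 and 1903, and 971 and 1342. Among number-coded samples they were 1631 and 1772. The counts of clock genes in these settings are therefore a description. Genes associated with the Clock level (914) numbered 155 under normexp and 82 among number-coded carcinomas. Under normexp the Per1 level had 3381 and the Cry2 level 3239, each 0 otherwise, and 2 fits between clock genes were called, Per1 and Cry2 on each other. The Per2 level had 0 among number-coded carcinomas.

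Changes that turned sign, none past the threshold unless stated, were these. Under normexp Cry1 was -0.032, Dbp 0.079 and Ciart -0.52 (limma adjusted p = 0.0303, past the threshold). With quantile normalization Clock was 0.023 and Dbp 0.26. Dbp was 0.0069 in the authors' deposited values and 0.011 with the code series as a block. With brightness as a covariate Dbp was 0.036 and Cry2 0.048. With the mean of a gene's probes Clock was 0.15, Per3 0.46 and Dbp 0.070. Other probes gave 0.34 for Clock, 0.29 and 1.19 (past the threshold) for Per3, and 0.093 and 0.13 for Dbp. Within slide 3, with 1 gland, Bmal1 was -0.39, Per2 -0.16, Per3 0.034, Cry1 -0.32, Nr1d1 1.52 and Dbp 1.77. Leaving out samples in turn, Clock ran from -0.22 to 0.19 and Dbp from -0.30 to 0.24. The cause of these shifts was not tested.

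The main limits are the small number of glands, the brighter carcinoma arrays, and the letter-coded samples all lying on slide 3. The 2 Dbp relations were checked under alternatives chosen after seeing the data, and they kept their sign and a p under 0.05 in all of them. In carcinomas both genes had been picked as the closest to Dbp in those same samples, so that outcome lends no support there. The SDs without single samples were also added after seeing the data.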
